A study of Mus musculus with 4 samples.

Results

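The 9 genes described here encode enzymes of the citric acid cycle in mouse epididymal white fat: Cs, Idh2, Idh3a, Idh3g, Ogdh, Suclg1, Sucla2, Fh1 and Mdh2. They were taken as every probe set of the array that carries 1 of these symbols and no other in the array's annotation. That gave 12 probe sets for the 9 genes, of 12422 probe sets and 8251 single gene symbols in all. The study gave male C57 BL6 mice aged 3 to 4 months CL 316243, an agonist of the β3-adrenergic receptor, at 3 nmol/hr. That is the number in the descriptions of the 3 treated samples; the titles of the day 1 and day 3 samples give it as CL 316234. RNA of the epididymal fat pad was pooled over mice and hybridised to 1 array after 1 day, 1 array after 3 days, 1 array after 6 days and 1 array of control mice. The sources used here do not say whether the control mice received a vehicle, nor how many mice went into a pool. With 1 array of pooled RNA per group no difference has a replicate check, no p-value is given, and precision is limited by the number of arrays.

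The citric acid cycle runs in the mitochondrial matrix. It oxidises the acetyl groups that come from fatty acids, pyruvate and amino acids, and it passes their electrons to the respiratory chain as NADH and as reduced flavin. In white fat cells citrate also leaves the mitochondrion to supply acetyl groups for fatty acid synthesis. β3-adrenergic agonists raise cAMP in fat cells and release fatty acids from stored triglyceride, and prolonged treatment of rodents is known to raise the oxidative capacity of white fat.

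The deposited values are probe set intensities, given below after a scaling that multiplied each array by a factor between 0.998 and 1.001. Values were raised to a floor of 173.7 units, which between 59.9% and 60.1% of probe sets per array exceeded, before ratios were taken. Each gene stands on its brightest probe set. All 9 genes lay above the floor on all 4 arrays, and they were compared with the 6254 genes above the floor on at least 1 array. Changes of at least 1.5-fold and 2-fold were counted. As a partial measure of technical error, probe sets that report the same gene were compared over 206 genes of an intensity of 1390 or more. Against control, the error of a log2 change was 0.21 at day 1, 0.19 at day 3 and 0.18 at day 6, so that 2 errors came to 1.35-fold, 1.30-fold and 1.29-fold. All 9 genes reach that mean intensity. Over 734 genes of any intensity above the floor the error was larger, at 0.32, 0.26 and 0.25, and counts by it are given as those of the larger error. The shares of all 6254 genes past 2 errors apply 1 error to every gene, dim ones included, so those of the 2323 genes of 1390 or more are given as well. Neither error holds variation between animals or pools. Effects of labelling or hybridisation that the probe sets of a gene share on an array are not held in it either.

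Citrate synthase (Cs), which joins acetyl-CoA to oxaloacetate and so opens the cycle, had an intensity of 10211 in control fat, 6952 at day 1, 13399 at day 3 and 11798 at day 6. Its day 1 level was the lowest of the 4 and its day 3 level the highest, though days 3 and 6 are within 2 errors of each other. It was 1.47-fold lower at day 1 than in control, 1.31-fold higher at day 3 and 1.16-fold higher at day 6, the last of which is within 2 errors.

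Idh2, the mitochondrial isocitrate dehydrogenase that makes NADPH, had 3063 units in control fat, 1430 at day 1, 2716 at day 3 and 2407 at day 6. All 3 treated arrays lay below control. The day 1 level was 2.14-fold lower than control, and the day 3 and day 6 levels were 1.13-fold and 1.27-fold lower, within 2 errors. Of the 9 genes, Idh2 was the only one below control at day 3 and at day 6, and the only one with its highest level in control.

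Idh3a and Idh3g encode the catalytic α subunit and the regulatory γ subunit of the NAD-dependent isocitrate dehydrogenase, the enzyme of the oxidative cycle itself. Idh3a stood at 1601 in control fat, 1099 at day 1, 2161 at day 3 and 2505 at day 6. Idh3g stood at 7052 in control fat, 4772 at day 1, 8310.1 at day 3 and 12063 at day 6. Both were lowest at day 1 and highest at day 6, though for Idh3a the day 3 and day 6 levels are within 2 errors of each other. At day 1 Idh3a was 1.46-fold and Idh3g 1.48-fold lower than control. At day 6 they were 1.56-fold and 1.71-fold higher, the largest rises against control among the 9 genes. Each has another probe set, and both of those lay below the floor on all 4 arrays: that of Idh3a gave between -11 and 37 units and that of Idh3g between 23 and 76.

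Ogdh encodes the component of the 2-oxoglutarate dehydrogenase complex that decarboxylates 2-oxoglutarate. It had 6784 units in control fat, 6529 at day 1, 7459 at day 3 and 8542 at day 6. These 4 values span 1.31-fold, the narrowest range of the 9 genes. The changes against control were 1.04-fold lower at day 1, 1.10-fold higher at day 3 and 1.26-fold higher at day 6, each within 2 errors.

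Succinyl-CoA ligase conserves the energy of succinyl-CoA in a nucleotide triphosphate. Suclg1 encodes its α subunit, which is shared, and Sucla2 the β subunit of the form that makes ATP. Suclg1 was at 4684.5 in control fat, 4068 at day 1, 6209.8 at day 3 and 6404 at day 6. It was 1.15-fold lower at day 1, within 2 errors, and 1.33-fold and 1.37-fold higher at days 3 and 6. Sucla2 was at 4196 in control fat, 2456 at day 1, 5734.5 at day 3 and 6213 at day 6. It was 1.71-fold lower at day 1, and 1.37-fold and 1.48-fold higher at days 3 and 6. Both probe sets of Sucla2 carry a suffix with which the array's maker marks probes that may match several sequences or that met fewer design rules. The other one, at 494.4, 254.6, 493.3 and 644.2 units on control and days 1, 3 and 6, was 1.94-fold lower at day 1 and 1.30-fold higher at day 6. At day 3, where the brighter probe set was 1.37-fold higher, the other one was at the control level, with a log2 change of 0.00 (-0.003).

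Fumarate hydratase (Fh1), which turns fumarate into malate in the matrix and also in the cytosol, had 4584.5 units in control fat, 3959 at day 1, 6824 at day 3 and 6803 at day 6. Its day 1 level was 1.16-fold lower, within 2 errors. Its day 3 and day 6 levels were 1.49-fold and 1.48-fold higher and nearly equal to each other. Mdh2, the mitochondrial malate dehydrogenase that closes the cycle by remaking oxaloacetate, had 15542 units in control fat, 16180 (16179.7) at day 1, 19183 at day 3 and 20912 at day 6. It was the only one of the 9 genes whose lowest level was in control. Its day 1 change was 1.04-fold higher, within 2 errors, and its day 6 change 1.35-fold higher.

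**Figure D1:**
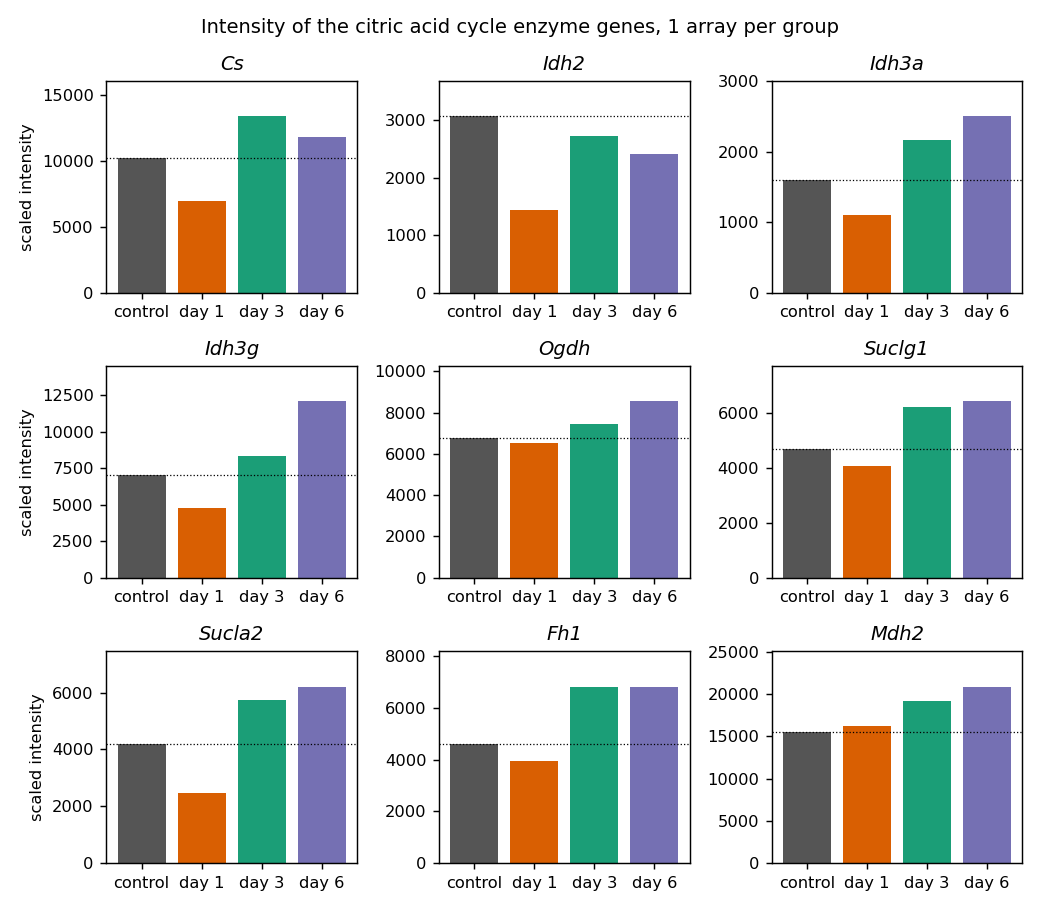
Scaled intensity (vertical axes, linear and starting at 0) of the 9 genes on the 4 arrays, with the control level as a dotted line. Bars stand for 1 array each and so carry no error bar. In measured values 8 of the 9 genes are lowest at day 1, and 6 are highest at day 6. Of those 6, only Idh3g exceeds its day 3 level by more than 2 errors between probe sets. The day 1 levels of Ogdh, Suclg1 and Fh1 are within 2 errors of control.

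After 1 day of CL 316243, against control, 8 of the 9 genes lay below their control level, beside 51.4% of all 6254 genes. Mdh2 was the exception, at 1.04-fold higher, which is within 2 errors. The median log2 change of the 9 genes was -0.54, beside -0.02 over all genes. Idh2 alone passed 2-fold (1 of 9, beside 8.36% of all genes), and Idh2 and Sucla2 passed 1.5-fold (2 of 9, beside 18.4% of all genes), shares that are near those of all genes. With the arrays scaled to ribosomal protein genes, 5 of 9 passed 1.5-fold, and without Sucla2 1 of the others did. Cs, Idh2, Idh3a, Idh3g and Sucla2 were lower by more than 2 errors between probe sets, which is 5 of 9 genes, beside 25.2% of all genes and 27.5% of the bright ones. By the larger error it was 2 of 9 (Idh2 and Sucla2), beside 16.5% of all genes. Ranked by their day 1 change among all 6254 genes, Idh2 was at the 6.70 percentile, Sucla2 at the 12.9 percentile and Cs, Idh3a and Idh3g between the 19.2 and 19.9 percentiles. Suclg1 and Fh1 were at the 37.9 and 37.4 percentiles, Ogdh at the 47.4 percentile and Mdh2 at the 58.1 percentile.

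After 3 days, against control, 8 of the 9 genes were above control, beside 46.3% of all genes, and Idh2 was below it. The median log2 change was 0.39, beside 0.00 over all genes. None of the 9 passed 1.5-fold (0 of 9, beside 9.91% of all genes; 1 after quantile normalization), and the largest difference was that of Fh1 at 1.49-fold. More than 2 errors above control were Cs, Idh3a, Suclg1, Sucla2 and Fh1, which is 5 of 9 genes, beside 17.7% of all genes and 18.3% of the bright ones. By the larger error it was 1 of 9 (Fh1), beside 11.7% of all genes.

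After 6 days, against control, the same 8 genes were above control, beside 46.8% of all genes, with a median log2 change of 0.45, beside 0.00 over all genes. Idh3a and Idh3g passed 1.5-fold (2 of 9, beside 7.95% of all genes), and 0 of 9 passed 2-fold, beside 1.73% of all genes. With the arrays scaled to ribosomal protein genes, 4 of 9 passed 1.5-fold. Idh3a, Idh3g, Suclg1, Sucla2, Fh1 and Mdh2 were higher by more than 2 errors, which is 6 of 9 genes, beside 16.6% of all genes and 17.0% of the bright ones. By the larger error it was 4 of 9 (Idh3a, Idh3g, Sucla2 and Fh1), beside 10.6% of all genes. Idh3g stood at the 96.0 percentile of all genes by its day 6 change and Idh3a at the 93.6 percentile, while Idh2 stood at the 18.0 percentile. The comparisons of days 1, 3 and 6 share the control array, so a high or low value on that array moves all 3 of them for a given gene.

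The widest difference between arrays lay between day 1 and the later days. At day 3, against day 1, all 9 genes were higher, beside 51.1% of all genes, and the median log2 change was 0.80, beside 0.01 (0.015) over all genes. Cs, Idh2, Idh3a, Idh3g, Suclg1, Sucla2 and Fh1 rose by at least 1.5-fold, which is 7 of 9 genes, beside 16.5% of all genes. Sucla2 rose 2.33-fold (1 of 9 past 2-fold, beside 5.84% of all genes; 4 of 9 with the arrays scaled to ribosomal protein genes, and 0 on its dimmer probe set), Idh3a 1.97-fold, Cs 1.93-fold and Idh2 1.90-fold. Ogdh and Mdh2 were 1.14-fold and 1.19-fold higher.

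At day 6, against day 1, all 9 genes were again higher, beside 51.7% of all genes, with a median log2 change of 0.76. The 7 genes past 1.5-fold were those of day 3 against day 1, beside 20.9% of all genes. Sucla2 at 2.53-fold, Idh3g at 2.53-fold and Idh3a at 2.28-fold passed 2-fold (3 of 9, beside 8.99% of all genes). Between day 6 and day 3 the levels differed little: 6 of 9 genes were higher at day 6, beside 49.4% of all genes, the median log2 change was 0.12, and 0 of 9 passed 1.5-fold, beside 7.12% of all genes (1 of 9 with the arrays scaled to ribosomal protein genes). Idh3g, at 1.45-fold, was the only one of the 9 that was higher by more than 2 errors, beside 23.1% of all genes and 19.8% of the bright ones; by the larger error it was also 1 of 9, beside 10.9% of all genes.

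**Figure D2:**
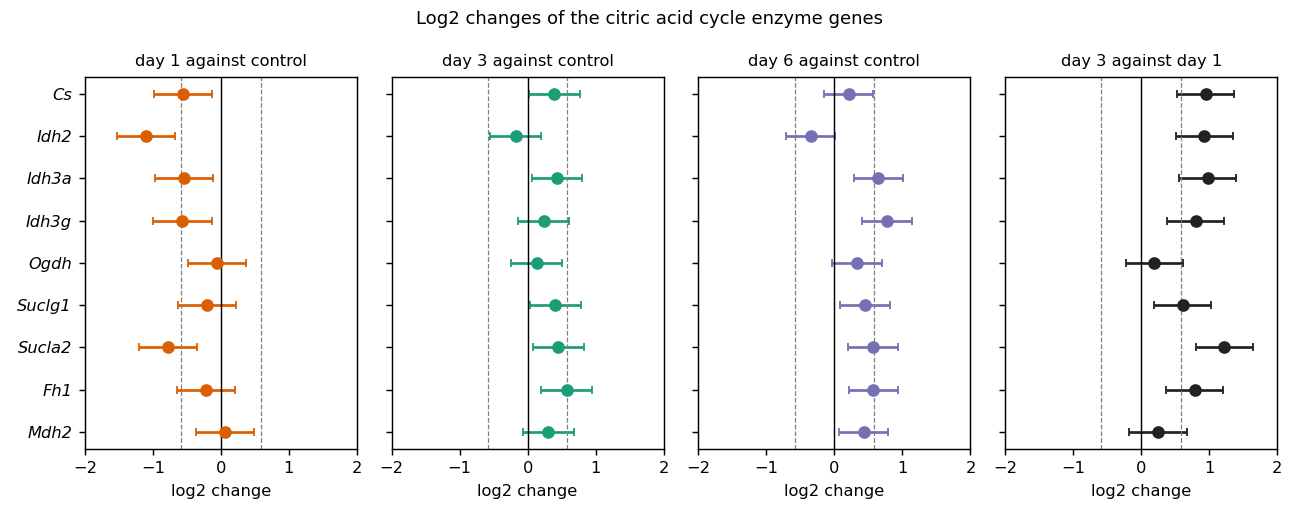
Log2 change (horizontal axes) of each of the 9 genes in 4 comparisons; bars span 2 errors between probe sets of 1 gene on each side, dashed lines mark 1.5-fold, and no bar holds variation between pools. Points lie mostly left of 0 at day 1 against control and right of 0 at days 3 and 6, except Idh2, and all 9 lie right of 0 at day 3 against day 1.

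The genes differed among themselves in how far they moved. The highest of the 4 arrays over the lowest was 2.53-fold for Sucla2 and for Idh3g, 2.28-fold for Idh3a and 2.14-fold for Idh2. It was 1.93-fold for Cs, 1.72-fold for Fh1, 1.57-fold for Suclg1, 1.35-fold for Mdh2 and 1.31-fold for Ogdh. In measured values, the enzymes of isocitrate oxidation and the β subunit Sucla2 thus spanned the wider ranges, and Ogdh and Mdh2 the narrower ones. No error was computed for a range, so genes close in this ranking, such as Idh2 and Cs, are not told apart. The levels ran in the order day 1, control, day 3, day 6 for 5 genes (Idh3a, Idh3g, Ogdh, Suclg1 and Sucla2) in measured values. Each of the 5 has at least 1 step between neighbours in that order that is within 2 errors, so the full order is not resolved for any of them: all 3 steps of Ogdh, the steps from day 1 to control and from day 3 to day 6 of Suclg1, that from day 3 to day 6 of Idh3a and Sucla2, and that from control to day 3 of Idh3g.

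Subunits and enzymes of the cycle outside these 9 genes also had medians below control at day 1 and above it at days 3 and 6. Of the further genes listed, 7 were above the floor, and Idh3b was below it on every array. At day 1 their median log2 change was -0.16, with 5 of 7 below control, beside 51.4% of all genes, and 2 above it. Sdha and Suclg2 were at least 1.5-fold lower (2 of 7), and 0 of 7 were at least 1.5-fold higher. The day 1 changes of Dlst, Dld, Sdhb, Sdhc and Sdhd were within 2 errors. At day 3 the median was 0.35, with 2 of 7 higher and 0 lower by 1.5-fold, and at day 6 it was 0.46, with 2 of 7 higher and 0 lower. Of all genes, 15.9%, 9.91% and 7.95% were at least 1.5-fold higher at days 1, 3 and 6. The shares of all genes at least 1.5-fold lower were 18.4%, 10.6% and 7.82%. Sdha, the flavoprotein subunit of succinate dehydrogenase, had 2148 units in control fat, 1156 at day 1, 2710 (2709.7) at day 3 and 3884 at day 6. Its fall at day 1 was 1.86-fold and its rise at day 6 was 1.81-fold, so that it spanned more than any of the 9 genes, at 3.36-fold. Sdhb, the iron-sulfur subunit, had 9784 units in control fat, 8267 at day 1, 13465 at day 3 and 16103 at day 6.

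Some subunits of one complex differed in their day 1 changes, and others did not differ beyond error. Between 2 genes, 2 errors of the difference came to 0.60 on the log2 scale at day 1. For the NAD-dependent isocitrate dehydrogenase, Idh3g differed from Idh3a by -0.02, within 2 errors. For succinyl-CoA ligase, the log2 change at day 1 was -0.77 for Sucla2 and -0.82 for Suclg2, the β subunit of the form that makes GTP, and -0.20 for the shared Suclg1, so that Sucla2 differed from Suclg1 by -0.57, within 2 errors, and Suclg2 by -0.61, just beyond them. At day 6 it was 0.57 for Sucla2, 0.14 for Suclg2 and 0.45 for Suclg1. For succinate dehydrogenase, Sdha had a day 1 log2 change of -0.89, and its membrane anchors Sdhc and Sdhd had -0.15 and 0.23, so that Sdha and Sdhd differed by -1.12, beyond 2 errors. For the 2-oxoglutarate dehydrogenase complex, Ogdh at -0.06 stood beside the succinyltransferase Dlst at 0.23 and the shared dihydrolipoyl dehydrogenase Dld at -0.16, each within 2 errors. At day 3 Dlst was 1.59-fold higher than control and Ogdh 1.10-fold, and the other probe set of Dlst gave a log2 change of 0.64.

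**Figure D3:**
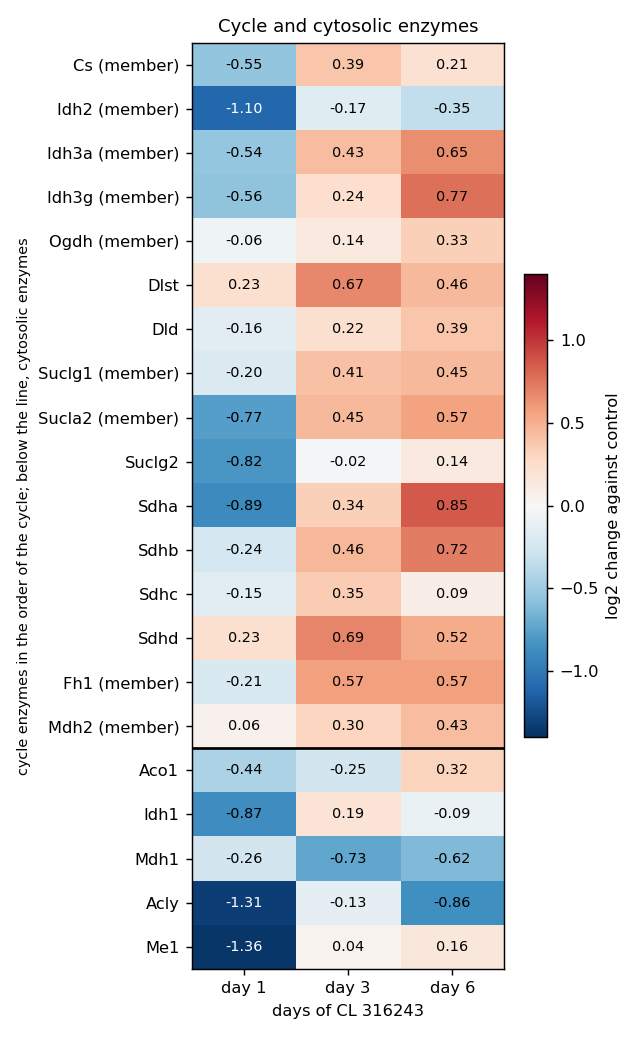
Log2 change against control (colour and printed value) of cycle enzymes and subunits in the order of the cycle, with cytosolic enzymes below the line, at days 1, 3 and 6 of CL 316243; each cell rests on 1 array per group. Idh2 is lower on all 3 days, from -1.10 to -0.17, whereas Idh3a, Idh3g, Sdha and Sdhb are below 0 at day 1 and above 0.60 at day 6.

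The cytosolic enzymes that handle citrate, isocitrate and malate had medians below control on all 3 days. Their median log2 change was -0.87 at day 1, -0.13 at day 3 and -0.09 at day 6, over 5 genes. At day 1, 3 of 5 were at least 1.5-fold lower and 0 higher, beside 18.4% and 15.9% of all genes. At days 3 and 6, 1 and 2 of 5 were lower by as much, beside 10.6% and 7.82% of all genes. On those days 0 were higher, beside 9.91% and 7.95%. Idh1, the cytosolic counterpart of Idh2, had 8208 units in control fat, 4488 at day 1, 9386 at day 3 and 7689.5 at day 6. Idh1 and Idh2 were both lower than control at day 1, and at day 3 Idh1 was 1.14-fold above control and Idh2 1.13-fold below it, a difference within 2 errors. Mdh1, the cytosolic counterpart of Mdh2, was at 636.5 in control fat, 531 at day 1, 384 at day 3 and 415 at day 6. Mdh2 had a day 6 log2 change of 0.43 and Mdh1 one of -0.62, and Mdh1 was read from a probe set dimmer than those behind the error given here. ATP citrate lyase (Acly), which splits exported citrate for fatty acid synthesis, was at 13518 in control fat, 5436 at day 1, 12350.5 at day 3 and 7442 at day 6. Malic enzyme (Me1), a cytosolic source of NADPH, was 2.56-fold lower than control at day 1, with 6160 (6159.6) against 15783 units, and at 17653 at day 6. Aco1, the cytosolic aconitase, was below the floor at day 1 and close to it in control, at 236 units.

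Genes through which pyruvate, amino acids and metabolites enter or leave the cycle had a median log2 change of -0.67 at day 1, 0.19 at day 3 and 0.25 at day 6, over 13 genes. At day 1, 1 of 13 was at least 1.5-fold higher and 7 lower. At day 3, 5 were higher and 0 lower, and at day 6, 5 were higher and 1 lower. Of all genes, 15.9%, 9.91% and 7.95% were at least 1.5-fold higher on days 1, 3 and 6, and 18.4%, 10.6% and 7.82% lower. Slc25a1, which exports citrate from mitochondria, had 12297 units in control fat, 5121 at day 1, 19128 at day 3 and 18516 at day 6. Slc25a10, which exchanges dicarboxylates such as malate and succinate for phosphate, had 7104 units in control fat, 2653.5 at day 1, 16145 at day 3 and 16006 at day 6. Both carriers were thus lower at day 1 and higher at days 3 and 6, as 7 of the 9 cycle genes were, but over a wider range. Pdk4, the kinase that switches off pyruvate dehydrogenase, was higher on every treated array, at 3248 (3247.5), 3022 and 3492 units on days 1, 3 and 6 against 1006 in control. Dlat, the acetyltransferase of pyruvate dehydrogenase, was 2.23-fold higher at day 3.

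Other lists of mitochondrial genes were read beside the cycle genes. The 15 beta-oxidation genes above the floor had medians of -0.46, 0.77 and 0.68 on days 1, 3 and 6. At day 1, 10 of 15 were below control, beside 51.4% of all genes. On that day 3 of 15 were at least 1.5-fold higher and 6 lower, beside 15.9% and 18.4% of all genes. At day 3, 9 of 15 were at least 1.5-fold higher, beside 9.91% of all genes, and at day 6, 11 of 15, beside 7.95%. Acadl, the long-chain acyl-CoA dehydrogenase, had 2165 units in control fat, 3808 at day 1, 6731 at day 3 and 6741 at day 6. It was above control on each treated day, unlike 8 of the 9 cycle genes and most beta-oxidation genes at day 1. The 50 respiratory chain and ATP synthase genes had medians of -0.25, 0.29 and 0.33. On days 1, 3 and 6, 0, 2 and 9 of 50 were at least 1.5-fold higher, beside 15.9%, 9.91% and 7.95% of all genes. At least 1.5-fold lower were 4, 0 and 0 of 50, beside 18.4%, 10.6% and 7.82%. The 22 genes of mitochondrial channels, import, chaperones and DNA maintenance had medians of 0.18, 0.10 and 0.05, so their day 1 median was above 0 while that of the cycle genes was -0.54. In that list Sod2, the superoxide dismutase of the matrix, was 3.15-fold higher at day 1, with 7516 against 2383 units. The peroxiredoxin Prdx3 was 2.07-fold higher at day 3, with 11420.0 against 5506 units.

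**Figure D4:**
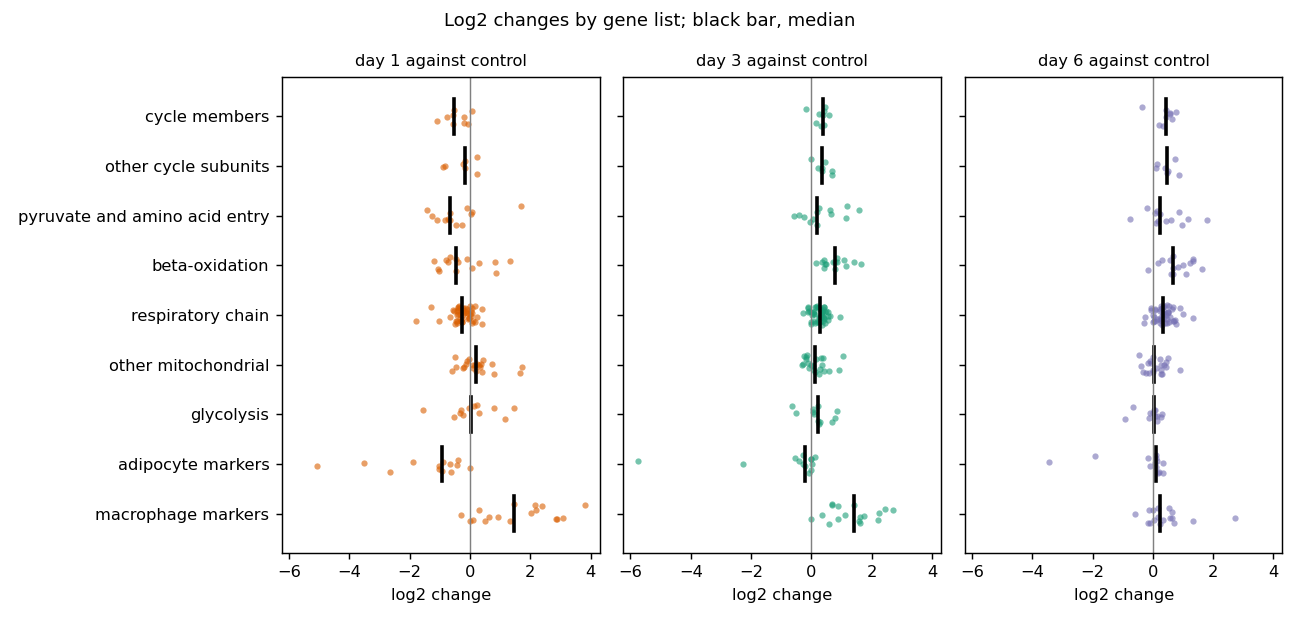
Log2 change (horizontal axes) of single genes by list at days 1, 3 and 6 against control, with a black bar at each list's median; points are genes, not replicates. The median of the 9 cycle genes lies at -0.54, 0.39 and 0.45, and that of the adipocyte markers at -0.92, -0.23 and 0.11.

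Regulators of mitochondrial genes were read on the same arrays. Ppargc1a, the coactivator that drives mitochondrial gene programmes, was below the floor on all 4 arrays, at 48.0 to 125 units, so no direction can be given for it. Esrra, the estrogen-related receptor α, which binds promoters of cycle genes, had 2017.5 units in control fat, 2449 at day 1, 3037 at day 3 and 2772 at day 6. It was 1.51-fold higher at day 3 (3037 against 2017.5 units) and 1.37-fold higher at day 6, and its dimmer probe set was 1.25-fold and 1.42-fold higher. At day 1 the brighter probe set had a log2 change of 0.28 and the dimmer one -0.13, each within 2 of the larger errors. Ppara, a fatty acid receptor, was at 382 in control fat, 574 (574.0) at day 1, 578 at day 3 and 877 at day 6. Pparg, the nuclear receptor of fat cell differentiation, was at 4876 in control fat, 1302 at day 1, 3376 at day 3 and 4522.5 at day 6, a day 1 fall of 3.75-fold. Gabpa, an ETS factor of respiratory genes, was at 815.6 in control fat, 593 at day 1, 611 at day 3 and 694 at day 6 on its brighter probe set. Nrf1 was not analysed here.

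The 250 bases before the annotated transcription start are shown for 4 of the genes, since the cAMP pathway and mitochondrial regulators act on such sequence. They are those of Mdh2 and Ogdh, which changed least at day 1, and of Sucla2 and Idh2, which changed most. Ogdh has 6 annotated starts, and the first by coordinate is shown. Whether a motif goes with the size of a change was not tested. The sequences are RefSeq's on GRCm38.p6, written 5′ to 3′ on the gene's strand. They cover chr5:135778399-135778648 (plus strand) for Mdh2, chr11:6291347-6291596 (plus strand) for Ogdh, chr14:73552536-73552785 (plus strand) for Sucla2 and chr7:80115351-80115600 (minus strand) for Idh2. Capitals mark the cAMP response element in Mdh2 and Ogdh, the NRF1 site in Sucla2 and the ETS core in Idh2. The ETS core also stands in the Mdh2 and Ogdh sequences, where it is not marked.
Mdh2: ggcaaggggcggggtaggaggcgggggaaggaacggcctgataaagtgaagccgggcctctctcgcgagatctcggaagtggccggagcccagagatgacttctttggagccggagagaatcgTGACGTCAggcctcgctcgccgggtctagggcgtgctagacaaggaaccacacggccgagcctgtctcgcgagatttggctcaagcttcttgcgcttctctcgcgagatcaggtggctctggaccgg
Ogdh: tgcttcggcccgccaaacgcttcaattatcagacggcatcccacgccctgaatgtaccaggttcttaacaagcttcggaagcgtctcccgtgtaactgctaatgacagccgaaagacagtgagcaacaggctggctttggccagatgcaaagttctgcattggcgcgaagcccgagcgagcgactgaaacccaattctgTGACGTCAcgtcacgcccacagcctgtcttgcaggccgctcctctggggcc
Sucla2: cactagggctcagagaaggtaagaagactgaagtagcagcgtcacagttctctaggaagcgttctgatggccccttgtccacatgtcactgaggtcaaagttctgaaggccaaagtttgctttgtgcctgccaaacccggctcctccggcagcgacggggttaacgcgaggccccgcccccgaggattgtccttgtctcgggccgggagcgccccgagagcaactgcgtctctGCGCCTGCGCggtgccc
Idh2: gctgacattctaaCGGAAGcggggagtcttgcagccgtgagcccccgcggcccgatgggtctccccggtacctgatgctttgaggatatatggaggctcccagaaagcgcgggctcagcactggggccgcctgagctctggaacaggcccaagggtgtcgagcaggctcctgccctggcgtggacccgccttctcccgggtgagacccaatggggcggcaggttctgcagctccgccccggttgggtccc

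Motifs were searched on both strands in the 250 bases before each start, in 13 windows of 8 of the 9 genes (6 of the windows belong to Ogdh, and some overlap) and in 32851 windows of the genome. Of the 13 windows, 11 were richer in G and C than the median of all windows, 52.4%, and their highest share was 74.0%; the shares below are not matched for it. The motifs were chosen after the values were known. The full cAMP response element TGACGTCA, which reads the same on both strands and to which CREB family factors bind, was found in 1.55% of all windows. It was in 4 of the 13 windows: among the 8 genes it was found in Mdh2, where it starts 127 bases before the transcription start, and in Ogdh, where it starts 51 bases before the start shown. The matches in the Ogdh windows are the same site of the genome seen in overlapping windows, so the 4 windows are not 4 separate sites. Some of the 6 Ogdh windows do not hold the element. The NRF1 site, GCGCA and GCGC with 1 base between them, was found in Sucla2, in 1 of the 13 windows, and in 3.74% of all windows. The ETS core CGGAAG was found in Fh1, Idh2, Idh3g, Mdh2 and Ogdh, in 7 of the 13 windows, and in 13.6% of all windows. Its matches in the Ogdh windows are again the same site, counted in each overlapping window. The estrogen-related receptor element TNAAGGTCA, in 1.14% of all windows, and the direct repeat bound by PPAR, AGGTCA given 2 times with 1 base between them, in 0.0335%, were found in 0 of the 13 windows; these motifs share the letters AGGTCA. A match is a description of the letters and does not show that a factor binds.

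The pattern of the 9 genes over the 3 treated days was also compared with all genes in none of the lists and at least 4 times the floor on all 4 arrays, of which there were 2805. The measure was the distance between a gene's 3 log2 changes against control and the median changes of the 9 genes, over 4 arrays. The nearest were Ifi27 at a distance of 0.07, Romo1 at 0.12, Ndufb11 at 0.13, Usp25 at 0.14 and Smc4 at 0.15. Ifi27 had 15934 units in control fat, 10670.0 at day 1, 21235 at day 3 and 22586 at day 6. Of the 9 genes themselves, Idh3a was nearest to the median at 0.20 and Idh2 farthest at 1.13, with 1743 of the 2805 genes nearer than Idh2.

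Markers of the cell types of the fat pad changed on the same arrays, and their part in the values above was not tested. In RNA of whole tissue, fewer cells of a type and less RNA per cell cannot be told apart. All 13 measured adipocyte markers were above the floor on every array. Their median log2 change was -0.92 at day 1, -0.23 at day 3 and 0.11 at day 6. At day 1, 10 of 13 were at least 1.5-fold lower and 0 higher, beside 18.4% and 15.9% of all genes. Their summed intensity was 308731 in control fat, 164973 at day 1, 253815 at day 3 and 287374 at day 6, so the adipocyte sum, like 8 of the 9 cycle genes, was lowest at day 1. For the 17 macrophage and myeloid markers the medians were 1.46, 1.42 and 0.25, with a summed intensity of 64065 in control fat, 159201 at day 1, 151330.0 at day 3 and 80597 at day 6. The 10 neutrophil markers had medians of 1.36, 0.00 and 0.00, and they moved both ways at day 1. On that day 6 of 10 were at least 1.5-fold higher and 3 lower (Camp, Elane and Prtn3), beside 15.9% and 18.4% of all genes. Of those that were higher, S100a8 had 40273 units at day 1 against 414 in control.

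The 6 brown and beige fat markers had medians of 0.59, 2.39 and 2.14, and their members differed in timing. Ucp1, which uncouples respiration from ATP synthesis, did not exceed the floor in control fat and stood at 3054 units at day 1, 1502 at day 3 and 1190 (1190.4) at day 6, at least 17.6-fold higher at day 1. Cox8b, a cytochrome oxidase subunit of brown fat, was at 1002 in control fat, 815 at day 1, 9554 at day 3 and 15477 at day 6. Its day 1 level was 1.23-fold lower than control, within 2 errors. Cidea, which acts at lipid droplets, was at 266 in control fat, 178 at day 1, 1313 at day 3 and 947 at day 6. Its day 1 level was close to the floor, and the difference from control then was within 2 of the larger errors. Of the 11 skeletal muscle markers, which were listed because muscle is rich in cycle enzymes, 6 (Ckm, Myh1, Myh2, Tnnt3, Tnni2 and Mb) were below the floor on every array. Acta1, the muscle actin, was at 1492 in control fat, 2377 at day 1, 212 at day 3 and 168 at day 6, highest at day 1. Myh4, a fast myosin, was lowest at day 1, below the floor, against 343 units in control, and at 383 and 373 at days 3 and 6; its probe set carries the maker's suffix. Medians at days 1, 3 and 6 were -0.72, -0.54 and -0.20 for 9 endothelial markers, -0.63, -0.05 and -0.51 for 9 fibroblast markers and -0.76, -0.64 and -0.60 for 8 smooth muscle markers.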

How the data were processed

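The authors deposited 1 table of linear probe set intensities, with 1 column per array, and no other file was used. How the intensities were background-corrected and normalized, and with which software, was not given in the sources used here. Between 12.1% and 12.4% of the values per array are at or below 0, and the quantiles of the 4 arrays are nearly the same (75th percentiles from 1197 to 1199), so every change is relative to a shared distribution. From there, the 66 control probe sets were left out. Arrays were multiplied so that their means, taken from the 2nd to the 98th percentile, became equal; lower values were then set to the 40th percentile (the floor), and log2 was taken. Symbols came from the platform annotation (10833 probe sets with 1 symbol, 396 with several and 1193 with none listed), and all 9 genes matched RefSeq by Entrez identifier. A gene with several probe sets stands on the one with the highest mean. The error between probe sets is the scaled median absolute deviation of the difference between the log2 changes of the 2 brightest probe sets of a gene, divided by the square root of 2. The steps were tested on simulated data.

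The genes and the lists (other cycle subunits, cytosolic enzymes, entry into the cycle, beta-oxidation, respiratory chain, other mitochondrial genes, glycolysis, regulators and cell type markers) were chosen with earlier results of these data known. Genes named outside the 9 are all measured genes of the first 2 lists, up to 4 of each other list by the largest change against control, and a fixed set of regulators. Python 3.11.15, numpy 2.4.6 and pandas 2.3.3 were used.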

Additional observations from a re-analysis of the deposited data

How the results depend on the processing

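The values were recomputed with 9 other settings (a floor set at the 25th percentile, at the 60th, or added as an offset, 4 other scalings, and the mean or the dimmest of a gene's probe sets above the floor on at least 1 array, which leaves out the other probe sets of Idh3a and Idh3g) and 1 added after seeing the data (without Sucla2). All 60 medians kept their sign and moved by less than the error between probe sets: they ranged from -0.61 to -0.38 for day 1 against control, 0.30 to 0.40 for day 3, 0.43 to 0.56 for day 6, and 0.77 to 0.88 for day 3 against day 1. Of 240 counts, 8 changed by over 1.5 times. With the arrays scaled to ribosomal protein genes, which moved the median of all genes by 0.17 for day 6 against day 1, 5 genes were at least 1.5-fold lower at day 1 instead of 2. Under that scaling 4 were 1.5-fold higher at day 6 instead of 2, 4 were 2-fold higher at day 3 than at day 1 instead of 1, and 1 was 1.5-fold higher at day 6 than at day 3 instead of 0. With quantile normalization 1 gene passed 1.5-fold at day 3 instead of 0. With the dimmest such probe sets 0 genes passed 2-fold for day 3 against day 1. Without Sucla2 that count was also 0, and 1 gene was 1.5-fold lower at day 1. No single gene past 1.5-fold changed sign. Smaller changes did for Mdh2 at day 1 against control, with log2 changes from -0.012 to 0.102 over the settings. The same held for Sucla2 at day 3 against control (-0.003 to 0.458) and Fh1 at day 6 against day 3 (-0.025 to 0.096). The -0.003 of Sucla2 is the log2 change of its dimmer probe set. The cause of the other shifts was not tested. No paired analysis was possible because each group has 1 array. Without replicates, differences within 2 errors between probe sets cannot be resolved.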

Other observations

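Glycolytic enzymes of the cytosol moved both ways at day 1, with log2 changes from -1.56 to 1.47, a span that holds that of the 9 cycle genes. Over 12 genes above the floor their median log2 change was 0.04 at day 1, 0.22 at day 3 and 0.05 at day 6. On these days 3, 3 and 0 of 12 were at least 1.5-fold higher, beside 15.9%, 9.91% and 7.95% of all genes. At least 1.5-fold lower were 1, 1 and 2 of 12, beside 18.4%, 10.6% and 7.82%. Pgk1, which makes ATP from 1,3-bisphosphoglycerate, had 3543 units in control fat, 9823 at day 1, 6377 at day 3 and 4255 at day 6. Pkm, the pyruvate kinase, had 9259 units in control fat, 20878 at day 1, 14700.0 at day 3 and 9745 at day 6. Both were highest on the day when 8 of the 9 cycle genes were lowest. The muscle isoform of phosphofructokinase, Pfkm, went the other way, at 260 (259.6) units at day 1 against 764 in control.

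Small marker lists gave medians at days 1, 3 and 6 of -0.14, -0.20 and -0.16 for 5 lymphocyte markers and -0.36, -0.33 and 0.00 for 10 markers of mesothelium, epididymis and testis. The 5 skeletal muscle markers above the floor had 0.65, 0.00 and 0.12. Of the liver markers 2 were above the floor, Alb and Apoa1, and each of them was so on the arrays of days 1 and 6 alone.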
